A study of Mus musculus with 18 samples.

Results

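MicroRNA precursor loci of the mouse genome were examined in lung fibroblasts that had entered a collagen gel and in those that had stayed on top of it. The members were all genes with a numbered microRNA symbol (Mir or Mirlet, a number and its suffixes) on a probe set that the array's annotation pairs with exactly 1 gene symbol, each represented by its brightest probe set. This rule gave 300 loci among 19938 genes. Of these, 296 are microRNA genes and 4 (Mir100hg, Mir17hg, Mir670hg and Mir99ahg) are longer non-coding transcripts named as hosts of microRNAs. Another 64 microRNA symbols occur only on probe sets shared with other genes and were not analysed here.

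The cells were MLg 2908, an established fibroblast line from the lung of newborn ddY mice of wild-type genotype. RNA was taken from the invading and the non-invading fraction 72 hours after plating (4 samples each) and 96 hours after plating (5 samples each), and the labels call the samples of a group biological replicates. The treatment entry of the labels names both the invasion assay and TGFB1 for all 18 samples, while the sample titles name no growth factor. From the labels alone, a treatment shared by all groups cannot be told apart from none. Both fractions came from a single cell line, so differences between donors were not sampled.

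MicroRNAs are cut from long primary transcripts in 2 steps, first in the nucleus by Drosha with Dgcr8 into a hairpin, then in the cytoplasm by Dicer1 into the mature strand, which guides an Argonaute protein to messenger RNAs. Many loci lie next to each other and are transcribed together, and others lie within protein-coding genes. The strand loaded onto Argonaute pairs with its targets mainly through the seed, bases 2 to 8 from its 5′ end, so loci that share a seed are grouped as a family. The array labels total RNA with a whole-transcript kit and reads the primary or precursor transcript, and the values given here say nothing about the amount of mature microRNA. In lung fibroblasts, microRNAs are known to tune collagen synthesis, contractility and migration.

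The mature strands of some of the loci with the strongest differences share a seed with others, and sequences are shown to make these families visible. They were taken from RefSeq (GRCm38.p6), are written 5′ to 3′, and have the seed in capitals. The miR-181, miR-99/100, Mir221 and Mir222, and let-7 families each contributed several loci, while miR-218, miR-301a and miR-103 each contributed a single one. Mir350, Mir568, Mir505 and Mir186, also lower by more than 1.5-fold at both times, belong to none of the families shown.
miR-181a-5p: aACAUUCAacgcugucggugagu
miR-181b-5p: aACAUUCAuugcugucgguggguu
miR-99a-5p: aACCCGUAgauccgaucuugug
miR-100-5p: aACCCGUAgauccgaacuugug
miR-221-3p: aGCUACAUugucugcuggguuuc
miR-222-3p: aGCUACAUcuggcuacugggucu
let-7c-5p: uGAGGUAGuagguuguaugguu
let-7d-5p: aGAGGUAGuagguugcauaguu
let-7e-5p: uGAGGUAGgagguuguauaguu
miR-218-5p: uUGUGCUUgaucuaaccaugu
miR-301a-3p: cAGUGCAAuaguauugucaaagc
miR-103-3p: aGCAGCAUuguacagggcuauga

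The array sees more than the mature strand. The hairpin of Mir218-1, at chr5:48223942-48224051 on the plus strand (GRCm38.p6), is shown with both mature arms in capitals, because this locus and its host gene are set side by side in the results, and that of Mir99a, at chr16:77598936-77599000 on the plus strand, because it is the shorter partner of the let-7c locus downstream of it.
Mir218-1: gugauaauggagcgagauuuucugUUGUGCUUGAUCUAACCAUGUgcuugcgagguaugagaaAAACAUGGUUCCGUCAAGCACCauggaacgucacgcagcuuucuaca
Mir99a: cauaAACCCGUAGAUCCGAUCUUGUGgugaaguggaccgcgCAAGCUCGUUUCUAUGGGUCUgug

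MicroRNA loci were dim on this array. Their mean log2 signal over the 18 samples had a median of 5.19 and a range of 3.41 to 10.24, against a median of 7.14 over all genes. On the linear scale, 88 of the 300 loci exceeded a signal of 100 in 1 or more samples, as did 11951 of the 19938 genes. The number of arrays limits the precision, and the files give no detection call, so a dim locus cannot be told apart from an absent one. Arrays of the same group correlated at 0.991 to 0.996. The median signal of the microRNA loci per array was 5.07 to 5.13 in invading and 5.11 to 5.30 in non-invading samples at 72 hours, and 5.02 to 5.17 in invading and 5.22 to 5.37 in non-invading samples at 96 hours. These medians overlapped between the fractions at 72 hours and were lower in invading samples at 96 hours. The medians of all probe sets per array were lower in invading samples at both times. They were 6.50 to 6.53 against 6.54 to 6.65 at 72 hours, and 6.46 to 6.54 against 6.58 to 6.64 at 96 hours. The part of either set of medians in the differences was not tested. The line expressed its labelled cell type's markers: the 11 fibroblast markers had mean log2 signals of 6.07 (Thy1) to 13.52, while epithelial, endothelial and leukocyte markers had 4.05 to 7.57, 4.76 to 6.51 and 4.69 to 7.18. Among these, Krt8, a keratin of simple epithelia, was higher in invading samples at both times (log2 ratios of 0.53 and 0.32). The epithelial adhesion genes Epcam (0.18) and Cdh1 (0.15) and the macrophage marker Cd68 (0.56) were higher at 96 hours. This made 3 of 8 epithelial and 1 of 6 leukocyte markers at 96 hours, when 16.7% of all genes passed as higher. Of the 11 fibroblast markers, 4 passed as lower at each time and 1 as higher at 72 hours. Over all genes, 13.5% passed as lower at 72 hours and 14.7% at 96 hours. The part of these markers in the results was not tested.

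Invading fibroblasts had less signal from a set of microRNA loci, and none of the loci was higher by more than 1.5-fold. A locus is called regulated here when its adjusted p (limma, Benjamini-Hochberg over all probe sets) was under 0.10 and its ratio of invading to non-invading samples exceeded 1.5 in either direction. At 72 hours 21 loci were regulated, all lower in the invading fraction. That is 7% of the 300 loci, against 3.57% of all genes (2.7% lower and 0.873% higher). At 96 hours 31 loci were regulated, again all lower, or 10.3%, against 3.15% of all genes (2.02% lower and 1.14% higher). In bulk samples of this kind, fewer cells that express a locus and less RNA per cell cannot be told apart. The loci lower by this margin at both times numbered 19, or 6.33%, against 1.39% of all genes, and none was higher at both, against 0.557%. Altogether 33 loci were regulated at either time, 30 of which have a mature sequence in the RefSeq table outside chromosome 18.

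Without the limit on the ratio, 65 loci passed the test at 72 hours, 18 higher and 47 lower in invading samples, or 21.7% against 26.5% of all genes. At 96 hours 107 passed, 20 higher and 87 lower, or 35.7% against 31.4% of all genes. Among all genes, 13% passed as higher and 13.5% as lower at 72 hours, and 16.7% as higher and 14.7% as lower at 96 hours. Both times together gave 44 loci lower and 9 higher, or 14.7% and 3%, against 9.6% and 8.39% of all genes. The split of the small differences depended on the scaling of the arrays. When each array was centred on its median, the median of all probe sets moved to 0.09 at 72 hours and 0.12 at 96 hours, and 55 loci passed as higher and 42 as lower at 72 hours, against 89 as higher and 61 as lower at 96 hours. With quantile normalization applied again, 42 passed as higher and 41 as lower at 72 hours, then 72 as higher and 63 as lower at 96 hours. The calls over all 35556 probe sets rose as well. They went from 9888 at 72 hours and 12352 at 96 hours to 12280 and 18739 on centred arrays. With quantile normalization applied again they were 12665 and 17433. Of the loci lower by more than 1.5-fold, 16 and 17 at 72 hours and 21 and 21 at 96 hours passed under these scalings, and the only locus above 1.5-fold in the other direction was Mir409 at 72 hours (0.61 and 0.59).

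**Figure D1:**
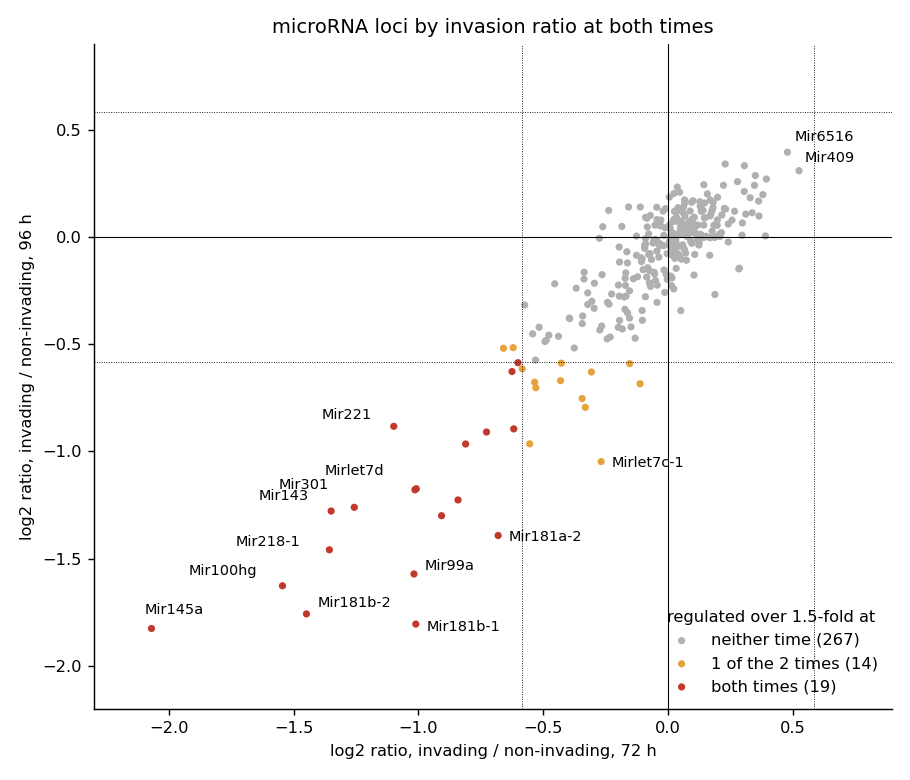
Log2 ratio of invading to non-invading samples at 72 hours (x axis) and 96 hours (y axis) for the 300 microRNA loci, 1 point per locus, with dotted lines at a ratio of 1.5 in either direction. The 19 loci regulated at both times lie in the lower left, Mir145a farthest out at -2.07 and -1.83, and no locus lies beyond the upper limit at either time.

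The counts were also taken by band of signal, since dim probe sets rarely exceed the ratio limit. Of the 113 loci with a mean log2 signal from 5 to 7, 11 (9.73%) were lower by more than 1.5-fold at 72 hours and 16 (14.2%) at 96 hours, against 0.788% and 1.06% of the 6217 genes in that band. Of the 58 loci at 7 or above, 10 (17.2%) and 12 (20.7%) were lower, against 4.77% and 3.21% of 10242 genes. Below 5, 0 and 3 of 129 loci (2.33%) were lower by this margin, against 0 and 7 of 3479 genes (0.201%). The loci whose 2 groups of samples did not overlap numbered 21 higher and 44 lower at 72 hours, or 7% and 14.7%, against 12.5% and 12.3% of all genes, and 8 higher and 46 lower at 96 hours, or 2.67% and 15.3%, against 9.35% and 8.8%.

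The largest difference of any locus was that of Mir145a on chromosome 18. Mir145a and Mir143 lie within 10 kb of each other and are known to be made from a shared transcript that serum response factor and myocardin drive in smooth muscle cells. At 72 hours Mir145a had log2 signals of 6.84, 6.43, 7.002 and 6.64 in invading samples, against 8.95, 8.66, 9.34 and 8.25 in non-invading samples. At 96 hours it had 6.18, 6.83, 6.22, 6.47 and 6.08 in invading samples, against 8.12, 8.89, 8.25, 7.41 and 8.25 in non-invading samples. Every invading sample lay below every non-invading sample, with a gap even between the nearest values. The log2 ratio was -2.07 (SE 0.22, adjusted p = 0.00073 by limma) at 72 hours and -1.83 (SE 0.23, adjusted p = 0.0003) at 96 hours, which is 0.238 and 0.282 of the non-invading signal.

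Mir143 followed the same order. Its signals at 72 hours were 6.92, 6.49, 6.40 and 6.41 in invading and 8.07, 7.65, 8.47 and 7.43 in non-invading samples. Those at 96 hours were 6.44, 7.01, 6.55, 6.38 and 6.05 in invading and 7.38, 8.32, 7.999, 7.27 and 7.85 in non-invading samples. The groups did not overlap at either time, and the log2 ratios were -1.35 (SE 0.22) and -1.28 (SE 0.22), with adjusted p = 0.0036 and 0.0014 by limma. Among 12 genes that drive or mark the smooth muscle programme, 2 passed the test as higher and 4 as lower at 72 hours, then 3 as higher and 2 as lower at 96 hours. Over all genes, 13% passed as higher and 13.5% as lower at 72 hours, and 16.7% and 14.7% at 96 hours. Acta2 was lower at 72 hours (-0.34, adjusted p = 0.066 by limma) and did not pass at 96 hours (-0.11). Tagln, the actin-binding protein transgelin, was lower at both times (-0.77 and -0.60), Mrtfa, a coactivator of serum response factor, was higher (0.28 and 0.32), and Myocd itself was dim (mean log2 signal 4.94) with log2 ratios of 0.08 and 0.00 that did not pass the test.

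Mir218-1 lies within Slit2 on chromosome 5, on the same strand, and its paralog Mir218-2 within Slit3 on chromosome 11. The mature miR-218-5p of both loci is identical, and miR-218 is known to target Robo1, a receptor of the secreted guidance cues Slit2 and Slit3. In invading samples at 72 hours Mir218-1 had log2 signals of 5.96, 5.99, 6.11 and 6.14, against 7.10, 6.67, 7.88 and 7.98 in non-invading samples. The 96 hour values were 6.08, 6.09, 5.68, 6.001 and 5.92 in invading and 7.36, 7.51, 7.70, 7.04 and 7.46 in non-invading samples. The invading values were tight and did not overlap with the others, whereas the non-invading values at 72 hours spread over more than 1 log2 unit. The log2 ratios were -1.36 (SE 0.26, adjusted p = 0.0075 by limma) and -1.46 (SE 0.12, adjusted p = 3e-05).

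Slit2, the host, was lower by less: its log2 ratios were -0.44 (SE 0.12, adjusted p = 0.033) and -0.27 (SE 0.07, adjusted p = 0.013). Its own probe set had a mean log2 signal of 10.61, and levels cannot be compared between probe sets. Mir218-2 had log2 ratios of 0.13 (SE 0.14) and 0.14 (SE 0.09) and Slit3 of 0.11 and 0.09, none of which passed the test, although Mir218-2 passed as higher at 96 hours under both other scalings. Thus 1 of the 2 loci for miR-218 passed as lower, and the difference between the loci was not tested. Among the 6 Slit and Robo genes measured, Slit2 and Robo1 passed the test, both lower at both times (Robo1 -0.33 and -0.31), and 4 passed at neither time. Over all genes, 9.6% passed as lower at both times.

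**Figure D2:**
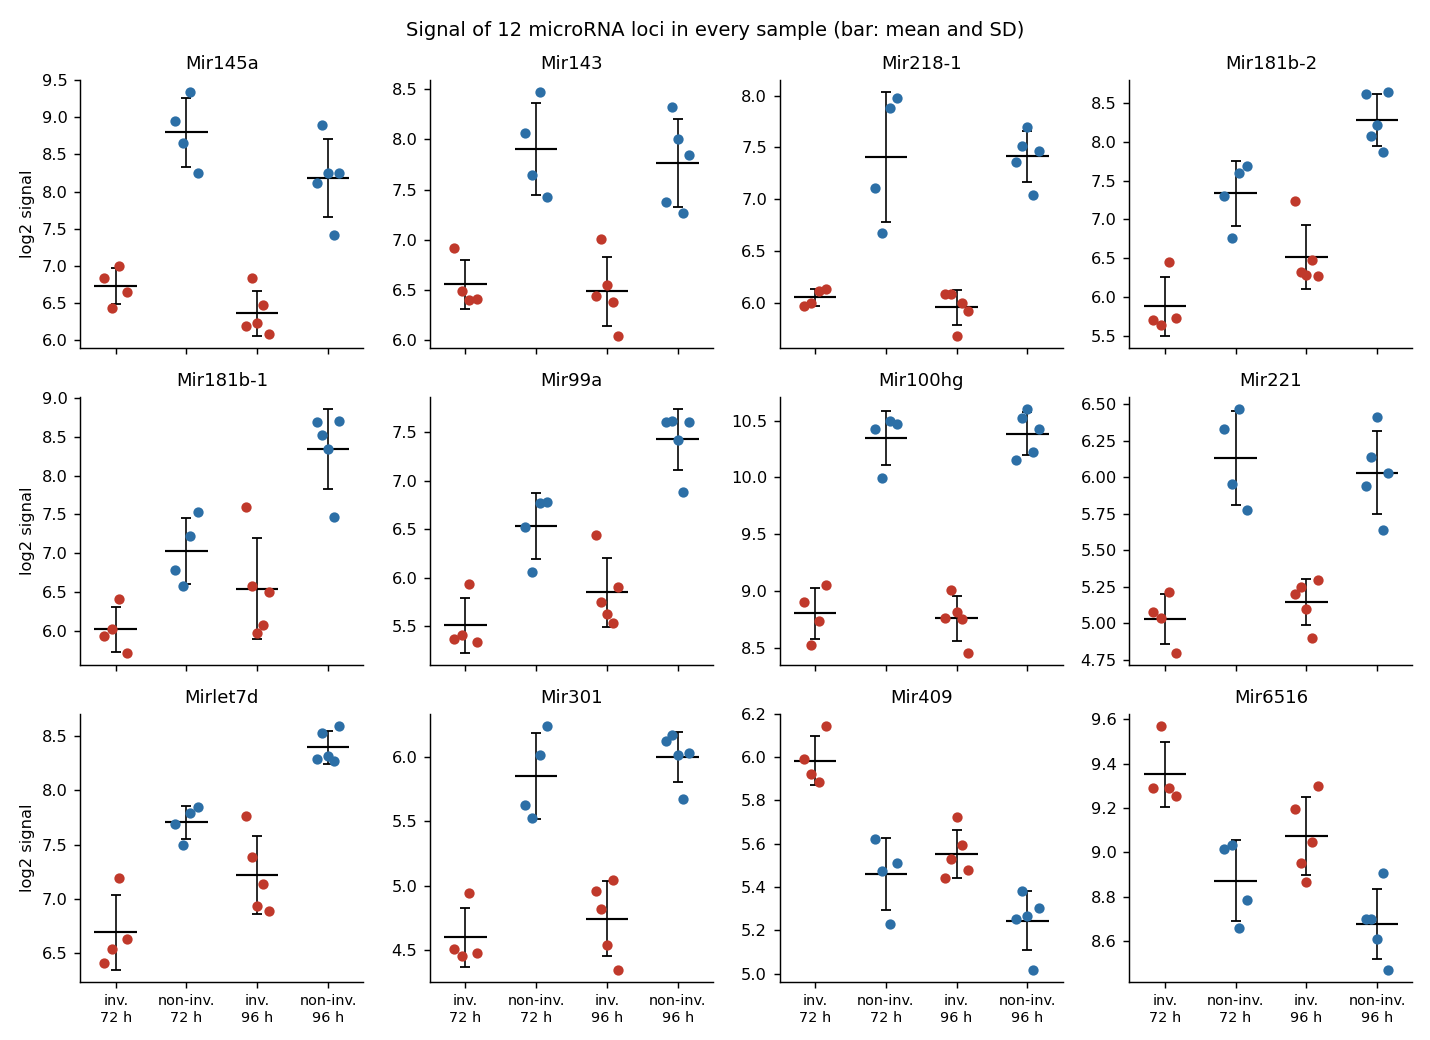
Log2 signal of 12 microRNA loci in every sample (points), with the group mean and SD (bars), invading samples in red and non-invading samples in blue, at 72 and 96 hours. In the first 10 panels the invading samples lie lower, with overlap only for Mir181b-1 at 96 hours, while Mir409 and Mir6516 lie higher in invading samples, Mir6516 with overlap at 96 hours.

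The miR-181 family, which is known for setting the sensitivity of T cell receptor signalling, has 6 measured loci in 3 clusters that share the seed ACAUUCA. At 72 hours 3 of the 6 were lower in invading samples, all by more than 1.5-fold, and at 96 hours 5 were lower, 4 of them by more than 1.5-fold. None was higher, and of all genes 13.5% passed as lower at 72 hours and 14.7% at 96 hours. Under both other scalings, 3 of the 6 loci were lower by more than 1.5-fold at 96 hours. The Mir181a-2 and Mir181b-2 pair on chromosome 2 and the Mir181a-1 and Mir181b-1 pair on chromosome 1 carried these differences, and the third pair, Mir181c and Mir181d on chromosome 8, had ratios closer to 0.

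Mir181b-2 had log2 signals of 5.72, 5.65, 6.45 and 5.74 in invading samples at 72 hours, against 7.30, 6.76, 7.59 and 7.69 in non-invading samples. At 96 hours the invading samples had 7.23, 6.32, 6.29, 6.48 and 6.27, against 8.61, 8.06, 8.21, 7.86 and 8.64. The groups were apart at both times, and 1 invading sample at each time stood above the others of its group. The log2 ratios were -1.45 (SE 0.23, adjusted p = 0.0035 by limma) and -1.76 (SE 0.21, adjusted p = 0.00018). Without that sample at 96 hours, invading replicate 1, the ratio was -1.94.

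For Mir181b-1 the 72 hour signals were 5.93, 6.02, 6.40 and 5.72 in invading and 6.78, 6.58, 7.22 and 7.53 in non-invading samples. At 96 hours they were 7.60, 6.58, 5.97, 6.07 and 6.50 in invading and 8.69, 8.53, 8.35, 7.46 and 8.71 in non-invading samples. Invading replicate 1 (7.60) lay above non-invading replicate 4 (7.46) at 96 hours, so that the groups overlapped by these samples. The log2 ratios were -1.01 (SE 0.21, adjusted p = 0.011) and -1.80 (SE 0.32, adjusted p = 0.0018 by limma), and the ratio at 96 hours was -2.07 without invading replicate 1 and -2.03 without non-invading replicate 4.

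Of the loci beside them, Mir181a-2 had log2 ratios of -0.68 (SE 0.10) at 72 hours and -1.39 (SE 0.18) at 96 hours, with no overlap. Mir181a-1, a dim locus with a mean log2 signal of 4.54, passed only at 96 hours (-0.68, SE 0.19, adjusted p = 0.023 by limma). On chromosome 8, Mir181c was lower at 96 hours (-0.42) and had -0.20 at 72 hours, which did not pass. Mir181d had -0.02 and -0.04, neither of which passed.

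Mir99a and Mirlet7c-1 on chromosome 16 and Mir100 and Mirlet7a-2 on chromosome 9 are paralogous pairs, each joining a miR-99/100 locus to a let-7 locus. MiR-99a and miR-100 share the seed ACCCGUA and are known to repress mTOR, a kinase that controls growth. Mir99a had log2 signals of 5.38, 5.41, 5.93 and 5.34 in invading samples at 72 hours, against 6.52, 6.05, 6.77 and 6.78 in non-invading samples. The 96 hour signals were 6.44, 5.75, 5.63, 5.53 and 5.90 in invading samples, against 7.60, 7.62, 7.42, 6.88 and 7.60 in non-invading samples. No invading sample reached a non-invading one at the same time, and the log2 ratios were -1.02 (SE 0.19) and -1.57 (SE 0.19), with adjusted p = 0.006 and 0.0002 by limma.

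Mirlet7c-1, its neighbour, overlapped between the fractions. In invading samples it had 4.35, 4.67, 5.08 and 4.60 at 72 hours and 6.20, 4.39, 4.79, 4.87 and 4.44 at 96 hours, against 5.09, 4.58, 4.87 and 5.24 and then 6.59, 6.25, 5.91, 5.09 and 6.09 in non-invading samples. At 96 hours invading replicate 1 lay within the range of the non-invading samples, and non-invading replicate 4 lay below the others of its group. The log2 ratio did not pass at 72 hours (-0.27, SE 0.18) and passed at 96 hours (-1.05, SE 0.35, adjusted p = 0.048 by limma). The call at 96 hours was lost when invading replicate 2, invading replicate 5 or non-invading replicate 1 was left out. Mir99ahg, the transcript named as host of this cluster, had 4 probe sets: its brightest gave log2 ratios of -0.19 at 72 hours and -0.39 at 96 hours, and the others gave 0.04, -1.14 and -0.59 at 96 hours, so the probe sets of this transcript disagreed.

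On chromosome 9 the long non-coding transcript Mir100hg contains Mir100, Mirlet7a-2 and Mir125b-1 on its own strand and was the second brightest member. It had log2 signals of 8.90, 8.53, 8.73 and 9.05 in invading samples at 72 hours, against 10.43, 9.99, 10.50 and 10.47 in non-invading samples. At 96 hours the values were 8.76, 9.01, 8.81, 8.76 and 8.46 in invading and 10.15, 10.52, 10.60, 10.22 and 10.42 in non-invading samples. The fractions were about 1 log2 unit apart even at their nearest samples. The log2 ratios were -1.54 (SE 0.14, adjusted p = 0.00047 by limma) and -1.63 (SE 0.11, adjusted p = 1.5e-05), or 0.343 and 0.324 of the non-invading signal. The 3 microRNA loci inside it were lower too: Mir100 by -0.55 and -0.96, Mirlet7a-2 by -0.31 and -0.63, and Mir125b-1 by -0.53 and -0.70, all past the test at both times. The call of Mir125b-1 at 72 hours (adjusted p = 0.077) was lost when invading replicate 1, 2 or 4 or non-invading replicate 1 was left out, and with quantile normalization applied again.

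Let-7 microRNAs repress growth and pluripotency genes such as Lin28, Hmga2 and Ras and accumulate as cells differentiate. Of the 10 let-7 and miR-98 loci measured, 5 were lower and 1 higher in invading samples at 72 hours, and 8 were lower and none higher at 96 hours. Over all genes, 13.5% passed as lower at 72 hours and 14.7% at 96 hours. Under both other scalings, 4 of the 10 loci were lower at 72 hours and 6 at 96 hours. Those lower by more than 1.5-fold went from 3 to 1 at 72 hours and from 4 to 3 at 96 hours. The strongest was Mirlet7d on chromosome 13, which had 6.41, 6.54, 7.19 and 6.63 in invading samples at 72 hours, against 7.69, 7.50, 7.79 and 7.84 in non-invading samples. At 96 hours it had 7.76, 7.39, 6.93, 7.13 and 6.89 in invading and 8.29, 8.54, 8.31, 8.27 and 8.60 in non-invading samples. The groups did not overlap, with log2 ratios of -1.01 (SE 0.16, adjusted p = 0.0033 by limma) and -1.18 (SE 0.15, adjusted p = 0.00033).

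Within 10 kb of it lie a pair of further loci: Mirlet7f-1 had -0.62 and -0.52, both past the test, and Mirlet7a-1 had -0.09, not past it, and -0.28, past it. Mirlet7e on chromosome 17 had 7.43, 7.33, 7.45 and 7.59 in invading samples at 72 hours, against 7.92, 7.98, 8.07 and 8.31 in non-invading samples. Its 96 hour values of 7.55, 7.22, 7.14, 7.05 and 7.22 lay well below the non-invading 8.19, 8.10, 8.26, 8.06 and 8.05. The ratios were -0.62 (SE 0.10) and -0.89 (SE 0.09), with adjusted p = 0.0031 and 7.9e-05 by limma. Its neighbours in the same cluster differed from it in value: Mir99b had -0.03 at both times and Mir125a -0.07 and -0.23, of which only the last passed the test.

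Mir221 and Mir222 on the X chromosome share the seed GCUACAU and are known to repress the cell cycle inhibitor Cdkn1b. In invading samples Mir221 had 5.08, 5.04, 5.21 and 4.80 at 72 hours and 5.20, 5.25, 5.10, 4.90 and 5.29 at 96 hours. Non-invading samples had 6.33, 5.96, 6.47 and 5.77 at 72 hours and 5.94, 6.14, 6.41, 5.64 and 6.03 at 96 hours. No overlap was seen, and the log2 ratios were -1.10 (SE 0.16, adjusted p = 0.0022 by limma) and -0.88 (SE 0.13, adjusted p = 0.00062). Mir222 had -0.66 (SE 0.13) and -0.52 (SE 0.11), both past the test, with overlap between the fractions at 96 hours.

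**Figure D3:**
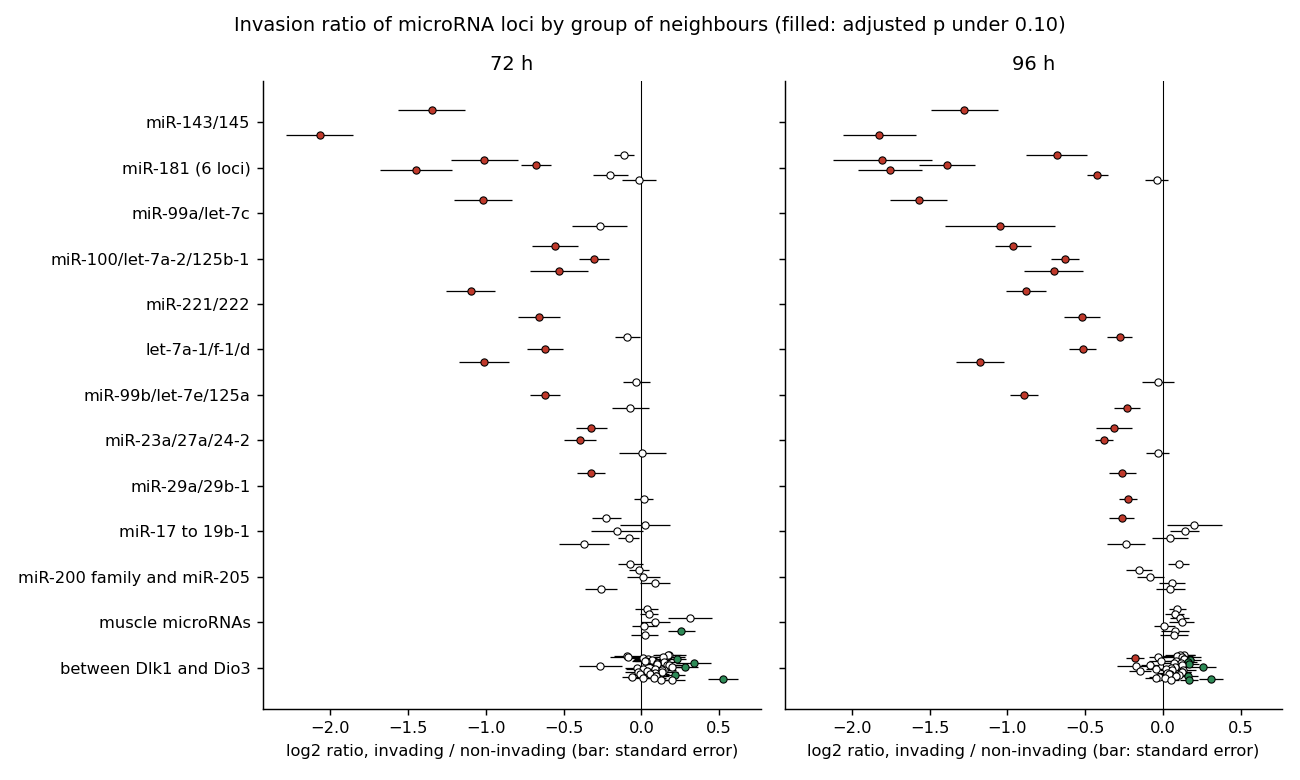
Log2 ratio of invading to non-invading samples at 72 hours (left) and 96 hours (right) for microRNA loci grouped by cluster or family, with the standard error as bar and a filled point where the adjusted p was under 0.10 (red lower, green higher in invading samples). The pairs of Mir143 and Mir145a and of Mir221 and Mir222 are filled and lower at both times, the miR-200 family and miR-205 have no filled point, and the 40 loci between Dlk1 and Dio3 lie between -0.26 and 0.53 at 72 hours and between -0.18 and 0.31 at 96 hours.

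Microarray signals of intragenic microRNA loci were set beside those of the genes that contain them, since such a locus can be read out from the host transcript. A protein-coding host on the same strand was measured for 87 members, some of which share a host. At 72 hours 6 of these pairs had a locus lower by more than 1.5-fold, and all 6 hosts were also called lower, 3 of them by more than 1.5-fold. At 96 hours there were 9 such pairs, with 7 hosts called lower and none higher. In the remaining pairs 11 hosts were lower and 9 higher of 82 at 72 hours, and 16 were lower and 11 higher of 79 at 96 hours. Over all genes, 13.5% passed as lower and 13% as higher at 72 hours, and 14.7% and 16.7% at 96 hours. Some of the remaining pairs had opposite calls. At 96 hours Mir106b was lower (-0.43) and its host Mcm7 higher (0.40), and Mir301b was lower (-0.31) and its host 2610318N02Rik higher (0.32).

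Mir301 lies within Ska2, a gene of the spindle and kinetochore complex, and shares its seed with the miR-130 loci. It had 4.51, 4.46, 4.94 and 4.48 in invading samples at 72 hours, against 5.63, 5.53, 6.01 and 6.24 in non-invading samples. The 96 hour samples had 4.96, 4.82, 4.54, 5.05 and 4.35, against 6.12, 6.17, 6.01, 5.68 and 6.03. The fractions were apart at both times, with a log2 ratio of -1.26 at each (SE 0.17 and 0.14, adjusted p = 0.0019 and 0.00014 by limma). Ska2 had -0.73 (SE 0.12) and -0.34 (SE 0.07), both past the test.

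Mir350 within Cep170, a centrosomal protein gene, had log2 ratios of -0.91 (SE 0.20) and -1.30 (SE 0.21), and Cep170 of -0.39 and -0.31. Mir186 within Zranb2, a splicing factor gene, had -0.73 (SE 0.15) and -0.91 (SE 0.09), and Zranb2 of -0.62 and -0.51. All of these passed the test. Spaca6, which contains Mirlet7e and its neighbours Mir99b and Mir125a, was lower by more than any locus it contains, with -1.37 (SE 0.13) and -1.28 (SE 0.08). Gabre, a receptor subunit gene that contains Mir224, had -0.81 and -0.78, both past the test, where Mir224 had -0.43 and -0.67.

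The loci of miR-103 lie in introns of pantothenate kinase genes, which make coenzyme A. Mir103-2, within Pank2, had 4.42, 4.57, 4.66 and 4.40 in invading samples at 72 hours, against 5.12, 5.01, 5.50 and 5.66 in non-invading samples. Its 96 hour signals were 4.91, 4.71, 4.70, 4.86 and 5.00 in invading and 5.60, 5.63, 5.74, 5.57 and 6.45 in non-invading samples. The groups were apart at both times, with log2 ratios of -0.81 (SE 0.14, adjusted p = 0.0055 by limma) and -0.97 (SE 0.15, adjusted p = 0.0011). Pank2 had -0.17 (SE 0.06), which just passed the test with adjusted p = 0.097, and -0.06 (SE 0.04), which did not. The other locus, Mir103-1 within Pank3, had -0.17 and -0.19 and passed at neither time. Pank3 was lower at 72 hours (-0.50) and did not pass at 96 hours (-0.21). Mir107 within Pank1, which shares the seed, had -0.38, not past the test, and -0.52, past it. Pank1 had 0.00 and 0.16 and passed at neither time. Mir30e within Nfyc, a subunit of a CCAAT-binding factor, was lower at both times (-0.53 and -0.68), while Nfyc had -0.07 and 0.08 and passed at neither time.

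**Figure D4:**
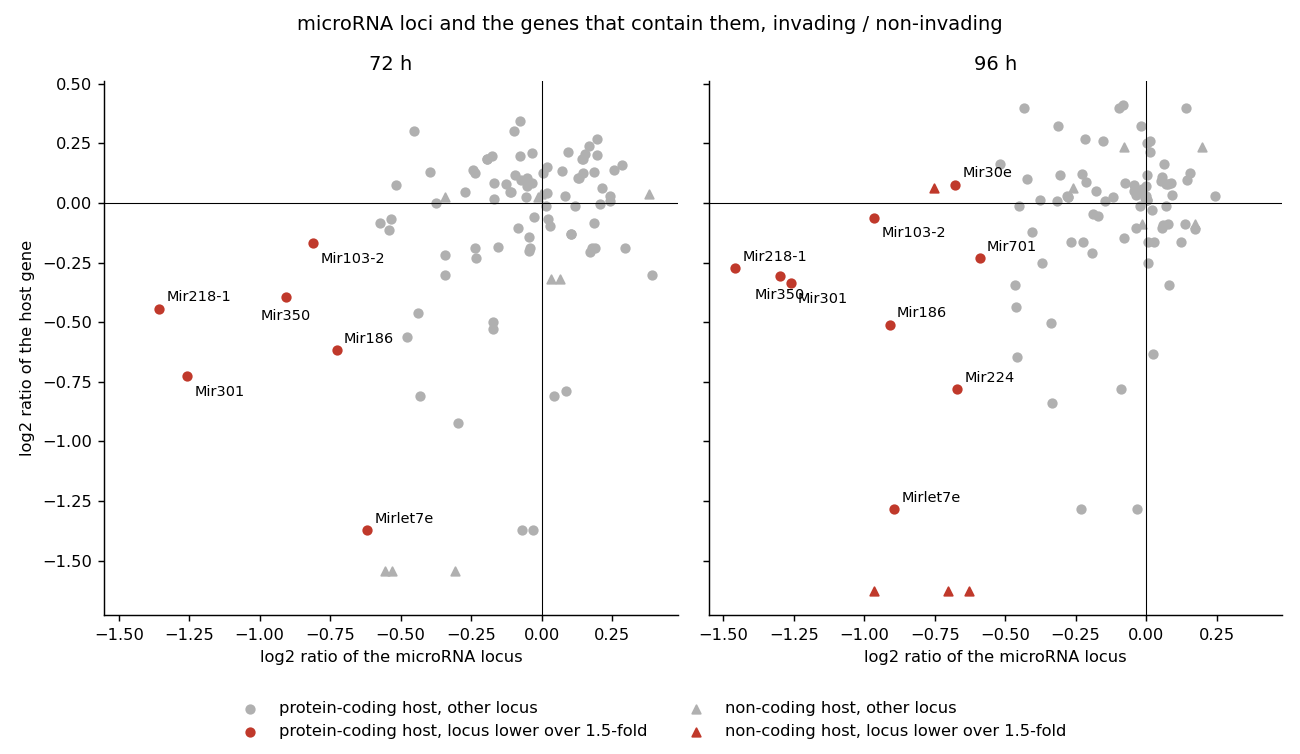
Log2 ratio of invading to non-invading samples of each microRNA locus (x axis) and of the same-strand gene that contains it (y axis) at 72 hours (left) and 96 hours (right), circles for protein-coding and triangles for non-coding hosts, red where the locus was lower by more than 1.5-fold. The red circles lie at or below 0 on the y axis, apart from Mir30e in Nfyc at 96 hours (0.08), and Mir218-1, Mir350, Mir301 and Mir103-2 lie farther from 0 on the x axis than on the y axis.

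Mir505 and Mir568 were regulated at both times and had no other measured member within 10 kb. Mir505 on the X chromosome, among the brighter members, had 7.97, 7.82, 8.19 and 7.56 in invading samples at 72 hours, against 8.81, 8.52, 8.95 and 9.29 in non-invading samples. Its 96 hour signals were 8.66, 7.66, 7.72, 7.93 and 7.36 in invading and 9.24, 9.07, 9.13, 8.73 and 9.01 in non-invading samples. The groups did not overlap, although invading replicate 1 came within 0.1 of the lowest non-invading sample at 96 hours. The log2 ratios were -1.01 (SE 0.18, adjusted p = 0.005 by limma) and -1.17 (SE 0.20, adjusted p = 0.0016). Mir568 on chromosome 16 had -0.84 (SE 0.11) and -1.23 (SE 0.11), without overlap at either time. The remaining regulated loci, outside the families and pairs given above, were Mir15a, Mir196a-1, Mir365-2, Mir674, Mir680-1, Mir680-2 and Mir701, with log2 ratios between -0.15 and -0.62 at 72 hours and between -0.59 and -0.79 at 96 hours.

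Further clusters known from fibroblast biology differed by less. Mir15a, the brightest microRNA gene among the regulated loci, belongs to the miR-15/16 family that represses Bcl2. It passed at 96 hours (-0.75, SE 0.16, adjusted p = 0.0057 by limma) and not at 72 hours (-0.34), and Mir16-1 beside it had -0.01 and -0.26, neither of which passed. Mir23a and Mir27a were lower at both times (-0.32 and -0.32, and -0.39 and -0.38), and Mir24-2 of the same cluster had 0.01 and -0.03, with no call. The 2 miR-29 loci measured, Mir29a and Mir29b-1, belong to a family that represses collagen genes and were dim (mean log2 signals of 4.29 and 3.59). Mir29a had -0.32 and -0.26, and Mir29b-1 had 0.01 and -0.23, of which the first did not pass.

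Of 14 loci of the miR-17 to miR-92 clusters and their paralogs, which MYC drives in proliferating cells, 1 was lower at 72 hours and 3 at 96 hours, none by more than 1.5-fold. These were Mir17hg, the host transcript (-0.53 and -0.57), and, at 96 hours, Mir17 (-0.27) and Mir106b (-0.43). The median ratio of the list at 96 hours was -0.09 as deposited and turned to 0.01 and 0.03 under the other scalings, where 3 of its loci were called higher. Mir199a-1 on chromosome 9 was lower by -0.49 at both times. A list of 25 microRNAs studied in fibroblasts had 1 locus higher and 6 lower at 72 hours, then 1 higher and 7 lower at 96 hours, where the other scalings gave 7 or 8 higher and 5 lower. Of 6 miR-30 loci, 1 was lower at 72 hours and 3 at 96 hours (Mir30e, Mir30b and Mir30c-2). For these lists, the shares of all genes as deposited were 13% higher and 13.5% lower at 72 hours. At 96 hours they were 16.7% higher and 14.7% lower.

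The loci that were higher in invading samples differed by small amounts. Mir409 had the highest log2 ratio at 72 hours and is named for that value. Its signals were 5.99, 5.92, 5.88 and 6.14 in invading and 5.62, 5.47, 5.23 and 5.51 in non-invading samples at 72 hours, and 5.44, 5.53, 5.72, 5.59 and 5.48 in invading and 5.25, 5.38, 5.26, 5.02 and 5.30 in non-invading samples at 96 hours. The groups were apart by a narrow margin at both times, with log2 ratios of 0.53 (SE 0.10, adjusted p = 0.0064 by limma) and 0.31 (SE 0.08, adjusted p = 0.012).

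Mir409 lies in the imprinted region between Dlk1 and Dio3 on chromosome 12, where a large group of microRNAs is expressed from the maternal chromosome. The region holds 40 of the 300 loci. At 72 hours 5 of them were higher (12.5%, against 13% of all genes) and none lower, and at 96 hours 8 were higher (20%, against 16.7%) and 1, Mir127, was lower (-0.18). These shares of higher calls are near the background. Their median ratios were 0.10 at 72 hours and 0.08 at 96 hours, against 0.01 and -0.04 over all 300 loci. The other scalings, which raised the median ratio of all probe sets, gave 10 and 15 higher calls at 72 hours and 21 and 25 at 96 hours. Over all 300 loci they gave 42 and 55 higher calls at 72 hours and 72 and 89 at 96 hours.

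Among the 5 brightest members, Mir692-1, the brightest, had 10.61, 10.57, 10.44 and 10.68 in invading samples at 72 hours, against 10.36, 10.31, 10.14 and 10.26 in non-invading samples. At 96 hours it had 10.27, 10.27, 10.24, 10.25 and 10.32, against 9.91, 10.01, 10.08, 9.76 and 9.92. All invading samples were higher than all non-invading samples of their time, at log2 ratios of 0.31 (SE 0.08) and 0.33 (SE 0.06). Mir6516 was higher as well (0.48, SE 0.11, and 0.40, SE 0.10), without overlap at 72 hours and with overlap at 96 hours, and Mir346 had 0.07 and -0.11, neither of which passed the test. Mir34b, of the miR-34 family that p53 induces, was higher at 72 hours only (0.24, SE 0.07), with -0.02 at 96 hours.

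MicroRNAs that mark other tissues gave few calls. The 5 loci of the miR-200 family and miR-205, which mark epithelium, had mean log2 signals of 4.39 to 6.34, and none passed the test at either time, although 1 or 2 passed as higher at 96 hours under the other scalings. The 4 blood-marked loci (mean log2 signals of 3.45 to 7.04) and the single endothelial (3.80) and liver (4.99) loci did not pass either, but under the other scalings 2 or 3 blood-marked loci passed as higher at 96 hours, as did the endothelial locus on centred arrays. Among 7 muscle-marked loci, with mean log2 signals of 3.48 to 4.51, only Mir208a was called, at 72 hours (0.26, adjusted p = 0.071 by limma), while the other scalings called 2 at 72 hours and 3 or 4 at 96 hours, all higher. Among 4 neural loci Mir124a-2 (0.34) and Mir124a-3 (0.20) were called at 96 hours. The calls of Mir208a and Mir124a-3 were lost in some other settings. Over all genes as deposited, 13% passed as higher at 72 hours and 16.7% at 96 hours.

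Time after plating changed fewer loci by a wide margin. Invading samples at 96 hours differed from those at 72 hours in 57 loci, 13 higher and 44 lower, or 19% against 34.8% of all genes. Only 4 (1.33%) differed by more than 1.5-fold, against 3.03% of all genes, of which 2.65% were higher and 0.386% lower. These were Mir687 (0.80), Mir15b (0.65) and Mir181b-2 (0.63), higher at 96 hours, and Mir185 (-0.60), lower. Mir687 had 5.43, 5.57, 5.40, 5.40 and 5.29 at 96 hours, against 4.69, 4.52, 4.64 and 4.64 at 72 hours in invading samples, without overlap (adjusted p = 3.1e-05 by limma). Its non-invading samples were higher at 96 hours too (0.53).

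Non-invading samples at 96 hours differed from those at 72 hours in 53 loci, 32 higher and 21 lower, or 17.7% against 27.6% of all genes. Here 12 loci were higher by more than 1.5-fold, or 4% against 1.39% of all genes, and only Mir145a was lower (-0.61, adjusted p = 0.094 by limma), against 0.577%. In both directions these are 4.33% of the loci and 1.97% of all genes. The split of the 53 calls became 29 higher and 33 lower with quantile normalization applied again, while centred arrays gave 30 and 25. Without non-invading replicate 2 of 72 hours the 53 calls fell to 35 (23 higher, 12 lower). The 21 lower calls fell to 11 without replicate 3 and to 9 without replicate 4 of that group, and to 11 without non-invading replicate 5 of 96 hours. The largest differences were those of Mir181b-1 (1.32, SE 0.31), Mir181a-2 (1.19, SE 0.16), Mirlet7c-1 (1.04, SE 0.32), Mir15b (0.99, SE 0.23) and Mir181b-2 (0.94, SE 0.24). Of these 5, Mir15b had not passed the test between the fractions at either time (-0.13 and -0.47). These comparisons share their non-invading samples with the comparison of the fractions, so their values are not independent of it.

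The ratio of invading to non-invading samples was then compared between the 2 times. No locus passed the test of this difference with limma, and 3 of all genes did (0.015%), all higher, 1 of them (0.00502%) by more than 1.5-fold. At an unadjusted p under 0.05 there were 19 loci (6.33%), against 8.61% of all probe sets. Subtracting the log2 ratio at 72 hours from that at 96 hours gave -0.79 (SE 0.43) for Mir181b-1, -0.71 (SE 0.23) for Mir181a-2 and -0.55 (SE 0.28) for Mir99a. For Mir145a it was 0.24 (SE 0.35) and for Mir218-1 -0.10 (SE 0.29).

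Genes of the microRNA pathway itself were examined alongside the loci. Of 34 measured, 10 passed the test as lower in invading samples at 72 hours (29.4%, against 13.5% of all genes) and 1 as higher (2.94%, against 13%). At 96 hours 11 passed as lower (32.4%, against 14.7%) and 3 as higher (8.82%, against 16.7%). The 34 genes had mean log2 signals of 5.08 to 12.06, and brighter genes passed more often. Of all genes at a mean log2 signal of 7 or above, 23.7% passed as lower and 18.4% as higher at 72 hours. At 96 hours these shares were 23.2% and 24.9%. The 4 with the largest ratios were Tnrc6a, a GW182 protein that binds Argonaute (-0.74, SE 0.13, and -0.67, SE 0.08), Dicer1 (-0.72, SE 0.09, and -0.49, SE 0.10), Cnot7, a deadenylase (-0.66, SE 0.11, and -0.43, SE 0.06), and the Argonaute gene Ago3 (-0.43, SE 0.10, and -0.55, SE 0.12). All passed the test at both times. Of the genes of the nuclear steps, Ddx17, an RNA helicase that works with Drosha, was lower at both times (-0.20 and -0.24), while Drosha had 0.00 and 0.07, Dgcr8 -0.17 and -0.07, the exporter Xpo5 0.02 and 0.02, and the Argonaute gene Ago2 had 0.02 and -0.10, none of which passed. The median ratios over the 34 genes were -0.03 and -0.04, against 0.04 and 0.02 over all genes.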

How the data were processed

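Total RNA of 18 samples was labelled with the Ambion WT kit and hybridised to Affymetrix Mouse Gene 1.0 ST arrays. The authors background corrected, sketch-quantile normalized and summarized the probe sets with RMA in Expression Console 1.2 and deposited log2 values, which were used as they are. RMA makes array distributions alike, so a shift shared by most dim probe sets is partly removed.

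The fractions were tested with limma (version 3.58.1, run under R version 4.3.3), fitting each time on its own, while changes with time and the difference between times came from a joint model of the 18 arrays. P-values were adjusted over all 35556 probe sets. The build behind the probe sets is not given in the sources used here. Neighbours within 10 kb, hosts and the printed sequences with their positions came from RefSeq. Named loci were the 15 strongest regulated per time, the 5 strongest between times, the 5 brightest, up to 3 of each microRNA list, their neighbours and hosts, plus Mir145a and Mir218-1. Mir409, Mir127 and the regulated loci listed by name only were added after their values were seen. The members and lists were chosen with earlier results of these data known. The fits were tested on simulated data. P-values set the difference of group means against the spread between samples within groups, which limma estimates with the help of all probe sets.

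Alternatives were 2 other scalings, a filter on dim probe sets, a stricter threshold, a fit with an intensity trend, fewer probe sets, 1 fit for all samples, a replicate block and leaving out each sample.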

Additional observations from a re-analysis of the deposited data

Results flagged for a closer look

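Among 180 groups of samples of the 45 named loci, 19 had a highest or lowest sample standing apart from the rest of its group by Dixon's test. Chance gives about 1 in 20 groups. At 96 hours, invading replicate 1 was the highest of its group for Mir181b-2 (7.23), Mir186 (5.59), Mirlet7c-1 (6.20) and Mir16-2 (5.55), and non-invading replicate 4 was the lowest for Mir181b-1 (7.46), Mir99a (6.88) and Mir350 (5.97). Among the non-invading samples of 96 hours, replicate 5 was highest for Mir103-2 (6.45) and Mir30b (5.44) and replicate 3 for Mir30e (6.20). At 72 hours, invading replicate 3 was highest for Mir181b-2 (6.45), Mir99a (5.93) and Mir301 (4.94), and invading replicate 1 was highest for Mir143 (6.92) and Mir23a (6.70) and lowest for Mir199a-1 (7.81). Invading replicate 2 was highest for Mir6516 (9.57), and non-invading replicate 2 was lowest for Mir100hg (9.99) and Mir568 (5.70) at that time. Without invading replicate 1 the loci lower by more than 1.5-fold at 96 hours numbered 32, and without non-invading replicate 4 they numbered 33, against 31 with all samples.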

How the results depend on the processing

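No named locus changed direction in any alternative while called. Of the 31 named calls at 72 hours 27 held in all alternatives, and of the 38 at 96 hours 31 did. Those lost in some were Mir125b-1, Mir23a, Mir687 and Mir208a at 72 hours and Mir23a, Mirlet7c-1, Mir124a-3, Mir17, Mir16-2, Mir29a and Mir29b-1 at 96 hours. Testing only probe sets that exceeded 100 on the linear scale in some sample left 88 loci, of which 37 passed at 72 hours, 43 at 96 hours (20 regulated over 1.5-fold), 28 between times in invading and 28 in non-invading samples. Of all 19690 probe sets left by this filter, 9288, 10492, 9800 and 8862 passed in these comparisons, in the same order. At an adjusted p under 0.05 the comparison of times in non-invading samples gave 35 loci. Leaving out 1 sample gave 55 to 74 loci at 72 hours, 91 to 115 at 96 hours, 19 to 27 and 26 to 33 regulated over 1.5-fold, none higher, and 46 to 61 and 35 to 61 between times in invading and non-invading samples, where the lowest count came without non-invading replicate 2 of 72 hours. The difference between times had 0 calls throughout, with limma in each alternative. Samples of the same replicate number had correlations of their deviations between -0.07 and 0.09 in the 72 hour set, with 1 of 4 best matched by its own number, and between 0.05 and 0.17 in the 96 hour set, with 4 of 5, which does not establish pairing. With a replicate block 60 and 113 loci passed at 72 and 96 hours, 21 and 31 regulated over 1.5-fold, and 64 and 53 between times. Low signal limits what can be called: 129 of 300 loci had a mean log2 signal under 5.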
